A study of Mus musculus with 2 samples.

Results

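STAT5 is a transcription factor that waits in the cytoplasm, is phosphorylated by Janus kinases at the activated IL-2 receptor, and then binds DNA as a dimer at sites of the form TTCNNNGAA. Neighbouring dimers can join into tetramers at paired sites, and STAT5 can occupy many places across 1 locus, inside introns as well as at gene starts. Described here are the 68 genes with 7 or more STAT5 regions, of 4934 genes in the authors' deposited table, or 1.38% of them. They were chosen by the table's own count of regions per gene, so their counts are a description of the choice and carry no test.

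The cells were effector CD8 T cells of C57BL/6 background carrying the transgenic OT-I antigen receptor. They had been transferred into mice, primed there with the SIINFEKL peptide plus agonists of CD134 and of CD137, both costimulatory receptors, and taken from spleens by cell sorting on day 4. The control group was 1 library of such cells left without the cytokine. The IL-2 group was 1 library of cells held for 1 hour in 0.5 µg/ml IL-2, and this was the sole difference the labels give. Both libraries came from chromatin immunoprecipitation with an antibody to STAT5 followed by sequencing (ChIP-seq). With 1 library per group no height has a replicate error, and the libraries were compared without a test. Read counts were not given, so the depth behind each height is unknown. Binding near a gene is no measure of its expression, so the labelled cell type could not be checked by marker levels. Of 17 listed B cell and myeloid marker genes 3 were in the table, 0 of them with 7 or more regions. Among RefSeq coding genes 16.6% of those under 50 kb and 27.4% of those of 50 to 100 kb were in the table. The marker count is near such shares, so nothing about cell type is read from it.

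A region is an interval called in the IL-2 library and assigned to a gene when it lies in the gene or in its flank of about 10 kb on either side. Its density is given per 10 kb of gene length plus 20 kb, which is about the window searched. Some assigned regions lie slightly beyond it, such as that of Ninj2 at -10.95 kb. Height is the deposited peak height in signal units, available per gene as a mean over its regions in each library and as the highest single peak. The 68 members held 665 of the 8337 gene-region assignments (7.98%) and 623 of the 5703 distinct regions (10.9%). Some members share regions, so the 68 genes form 63 loci. A further 136 genes that are no members share at least 1 region with a member, and 37 members share none.

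The sequences below are those where a member's recorded region meets a sequenced gene start, together with a microRNA that lies among 7 regions. The promoter windows run from 250 bases before to 50 bases after a start, and they and the microRNAs are from RefSeq on build GRCm38.p6, the same assembly as mm10. Windows existed for 47 of the 68 members, 80 windows in all, and 3 of them contained a region position. The capitals in these 3 windows mark the 17 bases centred on the recorded position of the region.
Fnbp1, chr2:31141959-31142258, minus strand: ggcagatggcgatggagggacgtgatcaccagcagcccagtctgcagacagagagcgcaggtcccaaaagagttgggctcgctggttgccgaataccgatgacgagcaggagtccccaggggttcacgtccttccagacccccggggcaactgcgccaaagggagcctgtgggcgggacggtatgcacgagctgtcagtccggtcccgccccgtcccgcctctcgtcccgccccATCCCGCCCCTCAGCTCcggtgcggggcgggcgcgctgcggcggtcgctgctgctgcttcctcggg
Ubac2, chr14:121878356-121878655, plus strand: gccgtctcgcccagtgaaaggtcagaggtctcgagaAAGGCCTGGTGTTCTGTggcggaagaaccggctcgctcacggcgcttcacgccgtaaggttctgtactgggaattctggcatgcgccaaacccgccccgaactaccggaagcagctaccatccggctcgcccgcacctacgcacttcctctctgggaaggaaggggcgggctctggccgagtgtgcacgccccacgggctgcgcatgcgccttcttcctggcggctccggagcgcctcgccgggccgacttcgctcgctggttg
Dock10, an internal start, chr1:80665303-80665602, minus strand: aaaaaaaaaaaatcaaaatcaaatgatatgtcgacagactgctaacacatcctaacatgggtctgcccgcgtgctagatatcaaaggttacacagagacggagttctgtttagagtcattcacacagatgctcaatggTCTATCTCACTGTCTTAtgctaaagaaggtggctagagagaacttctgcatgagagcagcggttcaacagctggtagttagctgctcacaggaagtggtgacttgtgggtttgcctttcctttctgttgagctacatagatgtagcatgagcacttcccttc

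None of these 3 windows holds TTCNNNGAA, searched with N as any base; the motif reads the same on both strands. Of the members' 80 windows 5 hold it (6.25%), against 10.4% of the 4589 windows of genes in the table and 8.30% of all 32851 windows. A match is a string of letters and not a measured site. The members' regions mostly lie outside these windows, which cover little of each locus. In 2 of the 5 windows the nearest region lay within 1 kb of that start, and the capitals below mark the motif. The region nearest this internal start of Ikzf1 was at -0.74 kb, and the region nearest this internal start of Cd82 was at -0.70 kb.
Ikzf1, an internal start, chr11:11689927-11690226, plus strand: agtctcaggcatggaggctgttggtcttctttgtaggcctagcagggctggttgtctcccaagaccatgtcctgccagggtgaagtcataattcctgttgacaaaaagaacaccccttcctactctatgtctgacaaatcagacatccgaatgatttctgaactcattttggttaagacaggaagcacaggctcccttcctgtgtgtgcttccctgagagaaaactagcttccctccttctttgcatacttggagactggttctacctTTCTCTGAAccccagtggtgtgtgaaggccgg
Cd82, an internal start, chr2:93452623-93452922, minus strand: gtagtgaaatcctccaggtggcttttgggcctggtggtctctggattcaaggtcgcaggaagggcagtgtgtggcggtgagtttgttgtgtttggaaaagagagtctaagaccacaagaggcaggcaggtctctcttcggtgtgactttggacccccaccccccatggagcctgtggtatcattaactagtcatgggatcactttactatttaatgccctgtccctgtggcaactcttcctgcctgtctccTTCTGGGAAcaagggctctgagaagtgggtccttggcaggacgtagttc

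Mir21, the gene of a microRNA that is abundant in activated T cells, is the shortest of the members that make a product of their own. Its entry in RefSeq is Mir21a, and the 2 mature strands are shown with the seed, bases 2 to 8, in capitals.
mmu-miR-21a-5p, chr11:86584120-86584141, minus strand: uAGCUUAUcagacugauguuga
mmu-miR-21a-3p, chr11:86584082-86584103, minus strand: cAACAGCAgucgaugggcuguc

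Longer genes were more often members, though many long genes had a single region. Members had a median length of 143 kb, against 20.7 kb for all genes in the table, and a median of 0.56 regions per 10 kb, against 0.31. High density was not particular to members. The median was 0.26 in genes with 1 region, 0.58 at 3 regions, 0.85 at 4, 0.84 at 5 and 0.62 at 6. Of 661 listed genes of 100 kb or more, 43 were members and 339 had a single region. The share of members rose from 0.196% of listed genes under 50 kb (7 of 3570) to 2.56% at 50 to 100 kb (18 of 703), 5% at 100 to 200 kb (22 of 440) and 9.50% at 200 kb or more (21 of 221). Even in the longest class 103 of 221 genes had 1 region. Over all RefSeq coding genes, listed or not, the shares of members in these classes were 0.024%, 0.596%, 1.60% and 1.92%. The searched window also grows with gene length, so neither set of shares is at like window. Across the 68 members Spearman's rho between length and count was 0.28, and across all 4934 listed genes it was 0.15. Neighbouring genes share regions, so the points are not independent. Members were cut on the count itself, 3292 listed genes tie at 1 region and genes with no region are absent. The 2 values therefore do not measure how closely count follows length. Long genes with 1 region and short genes with 7 both occurred.

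**Figure D1:**
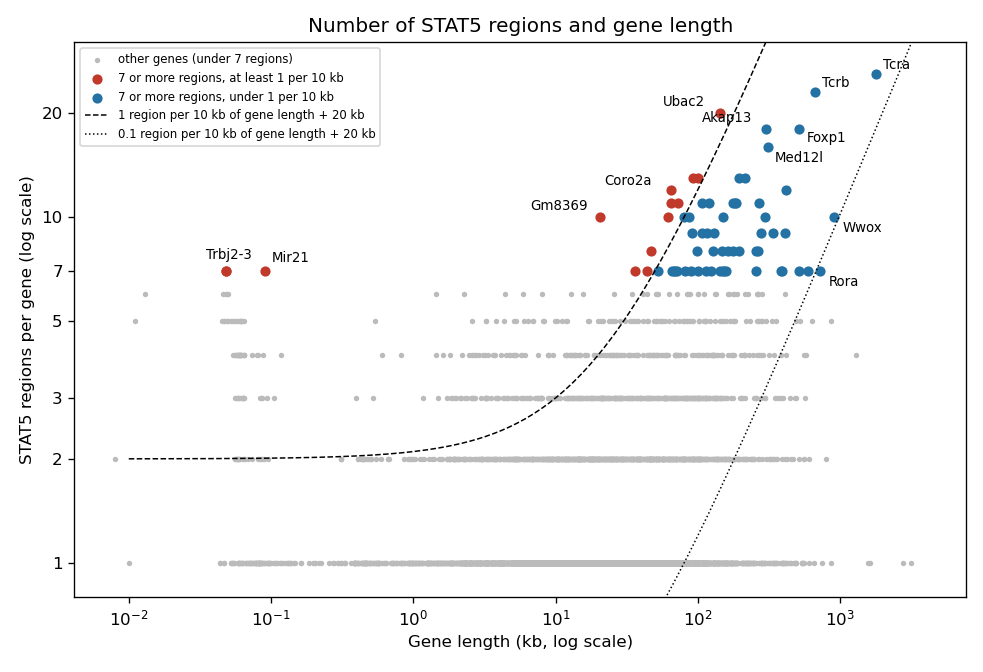
STAT5 regions per gene against gene length in kb (both log scales), with 1 point per gene; dashed and dotted lines mark 1 and 0.1 region per 10 kb of gene length plus 20 kb. The 14 dense members (red) lie above the dashed line, from segments of 48 bp to Ubac2 of 142 kb, and the 54 sparse members (blue) below it, down to Wwox (10 regions) and Rora (7 regions) near the dotted line.

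A cut of 1 region per 10 kb set 14 dense members apart from 54 sparse ones. Dense members had a median length of 54.2 kb and a median of 1.24 regions per 10 kb, and sparse members 169 kb and 0.48. Of the sparse members, 8 were even below 0.24 regions per 10 kb, the density pooled over every gene in the table, while 60 of all 68 members were above it. The 8 were Inpp4b, Arhgap26, Hecw2, Tcra, Rad51b, Lpp, Wwox and Rora. The table holds only genes with at least 1 region, so that pooled value is not a genome-wide rate. Among 2514 listed genes of 20 kb or more, 20 reached 1 region per 10 kb, and 11 of these were members.

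The highest densities belonged to short entries whose regions lie mostly outside them. Trbj2-3 and Trbj2-4, joining segments of the T cell receptor beta locus of 48 bp each, had the same 7 regions (3.49 per 10 kb), with 5 upstream, 2 downstream and 0 within. The outermost on each side, at -10.55 and 11.29 kb for Trbj2-3, lay outside the window that the density is divided by. Mir21, of 91 bp, had 7 regions (3.48 per 10 kb), at -9.31, -7.46, -2.72, -0.07, 3.58, 4.72 and 6.86 kb from its start. All 7 also belong to Vmp1, a gene for an endoplasmic reticulum membrane protein of autophagy, which had 13 regions over 99957 bp (1.08 per 10 kb). In Vmp1 all 10 regions inside the gene lay after its midpoint, from 54.1 kb on, and 3 lay downstream, on the side where Mir21 is. The mean height over the 7 regions of Mir21 was 6.29 in control and 27.6 with IL-2, and over the 13 of Vmp1 5.08 and 28.2. Both entries had the same highest peak of 101, so that peak fell among the 7 shared regions or was equalled there. The region at 6.86 kb had an IL-2 height of 12 and the one at -9.31 kb a height of 19, as solved from the means of genes that share them, so neither is that peak.

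Gm8369, an uncharacterised gene of 20.5 kb on chromosome 19, was next in density, and most of its regions lay inside it. It had 10 regions (2.47 per 10 kb), 6 within the gene, 1 upstream and 3 downstream, and mean heights of 4.6 in control and 44.8 with IL-2. Its highest peak, 125, lay 13.2 kb inside the gene, in a region shared with Gm19261. The region at -7.88 kb, shared with BE692007 and Ms4a6c, had a height of 83. The other 8 regions therefore averaged less than either. Ms4a6b and Ms4a6c, of a family of membrane-spanning proteins, share 3 regions and 1 region with Gm8369.

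The other members under 50 kb were D16Ertd472e (36.4 kb, 7 regions), P2ry12 (46.6 kb, 8 regions), a receptor for ADP, and Cd82 (43.8 kb, 7 regions), a tetraspanin of the cell surface. Mean heights were 4.86 and 37.6 for D16Ertd472e. For P2ry12 they were 4 and 20.4, and for Cd82 5.43 and 22.7. All 8 regions of P2ry12 lie in Med12l, which runs over 311 kb and had 16 regions (4.69 and 29.7). P2ry12, P2ry13, P2ry14 and Gpr171, receptor genes that share regions with Med12l, account for 15 of its 16 regions, and the remaining region, 72.6 kb in, had a height of 63. Gpr171 had the same highest peak as Med12l, 74. Likewise Gpr183, a receptor for oxysterols that guides lymphocyte migration, held 6 of the 20 regions of Ubac2, and Gpr18 held 3 of them.

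The other dense members were genes of 61.8 to 142 kb. Ubac2, of 142 kb, had 20 regions (1.23 per 10 kb), more than any member outside the T cell receptor loci, with mean heights of 5.3 and 28.2. Ets1, a transcription factor of lymphocytes, had 10 regions (1.22 per 10 kb; 5.9 and 36.1). Cd226, an activating receptor of T and NK cells, had 11 (1.18 per 10 kb; 5.36 and 27.2). Sema4d, a semaphorin of T cells, had 13 (1.16 per 10 kb; 5.39 and 40.9). Coro2a, an actin-binding coronin, had 12 (1.41 per 10 kb) with the lowest mean IL-2 height of the dense members, 20.1, against 5.55 in control. The deposited control mean of Coro2a is whole over 11 regions and not over 12, so 1 region may be missing from it. Counting each locus once left 10 dense entries of 63, since P2ry12, the 2 joining segments and Mir21 gave way to the gene of their locus with the most regions.

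**Figure D2:**
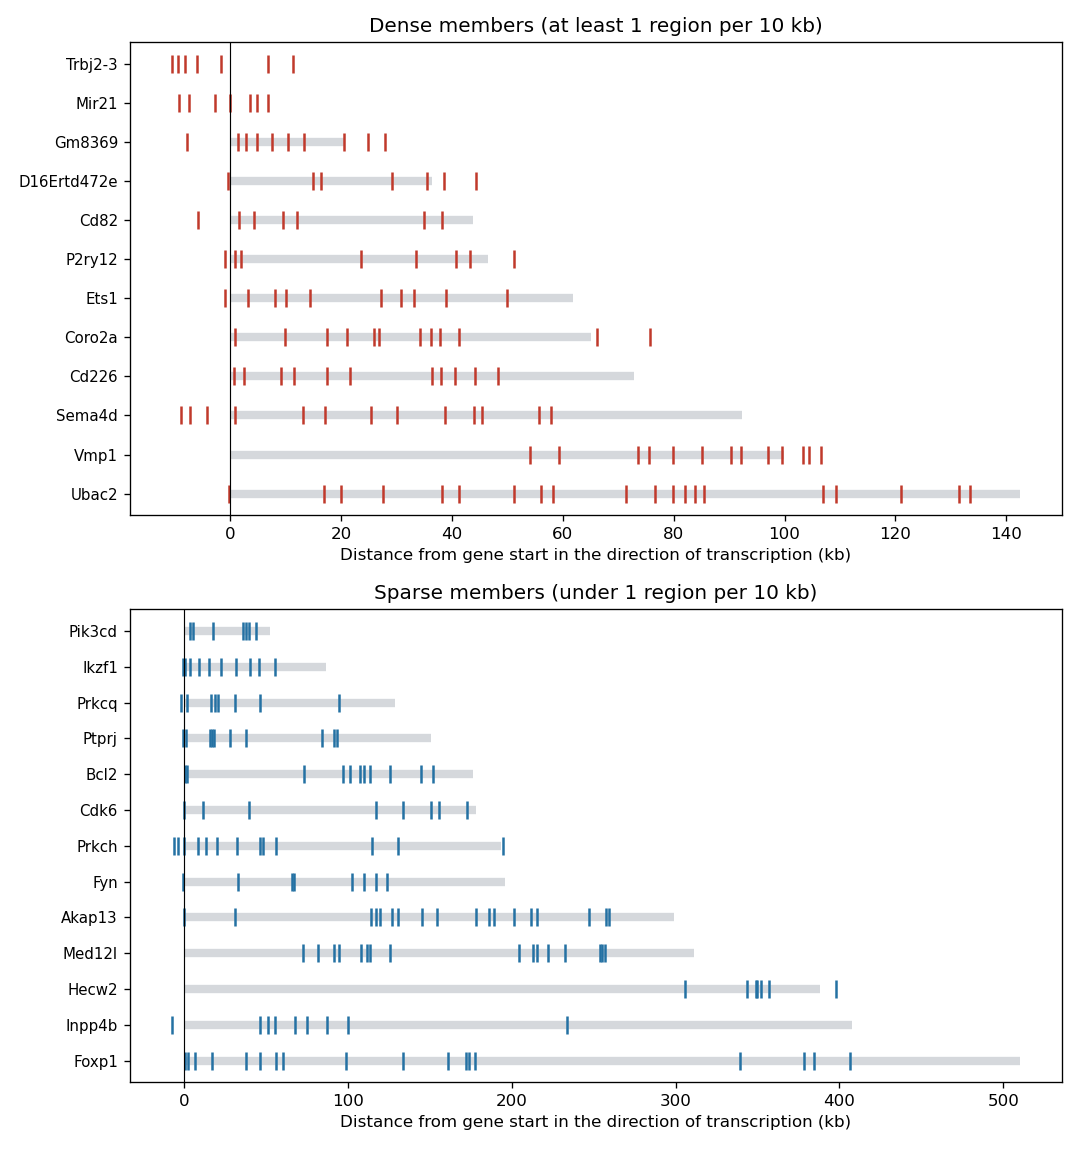
Position of each STAT5 region (vertical marks) along 12 dense members (upper panel) and 13 sparse members (lower panel), as distance in kb from the gene start; grey bars span the gene. Marks of Trbj2-3 and Mir21 lie outside their short genes, those of Vmp1 and Hecw2 gather toward the gene end, and those of Prkcq and Ikzf1 toward the start.

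Regions of members lay mostly inside the gene body. Of 665 assignments, 575 (86.5%) were inside the gene, 56 (8.42%) upstream and 34 (5.11%) downstream. Over all 8337 assignments, 4169 were inside the gene, 2473 (29.7%) upstream and 1695 (20.3%) downstream. Members are longer, and a longer gene fills more of its own window, so the shares are not compared at like length. Within 1 kb of the start lay 39 member assignments (5.86%), against 22.0% over the table. A region within 1 kb of the start was present at 34 of 68 members (50%) and at 1808 of 4934 listed genes (36.6%). In 62 members with 5 or more regions inside the gene, 316 regions lay before the midpoint and 250 after it. Both sides were occupied in 54 of these 62.

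Of those 62, 8 had all their inner regions on 1 side of the midpoint. Before the midpoint lay all those of Pik3r5 (6, up to 32.4 kb of 65.7 kb), Fli1 (9, up to 52.0 kb of 119 kb), Cradd (7) and Pitpnc1 (8). After the midpoint lay those of Vmp1, Hecw2 (6, from 305.5 kb on in a gene of 388 kb), Tcra and Rora (7, from 377 kb on in a gene of 725 kb). Fli1 encodes an ETS factor, Cradd an adaptor of cell death signalling and Hecw2 a ubiquitin ligase. Rora encodes a nuclear receptor.

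Some inner regions lay near a start other than the deposited one. The 47 members with RefSeq windows had 438 regions, of which 31 lay within 1 kb of the deposited start and 46 within 1 kb of any RefSeq start of the gene; 19 of the 47 had more than 1 window. Dock10, an exchange factor for small GTPases, had a region 0.10 kb upstream of the internal start printed above and another 0.86 kb after its outer start. Foxp1, a factor that holds T cells in quiescence, had a region 0.50 kb upstream of an inner start. Other examples of internal starts with a region within 1 kb were in Ablim1 (0.21 kb), Wipf1 (0.26 and -0.28 kb), Adam19 (0.37 kb), Sema4d (0.57 kb), Prr5l (0.62 kb), Pik3cd (0.63 and -0.68 kb), Coro2a (0.68 kb), Cd82 (0.48 kb, besides the one printed above) and Sept9 (0.14 kb, and 0.73 kb from a neighbouring start).

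Neighbouring regions of a member were a median of 6416 bp apart (quartiles 3200 and 14320 bp, 597 distances). Of these distances 256 (42.9%) were 5 kb or less and 75 (12.6%) 2 kb or less. In genes with 4 to 6 regions the median was 5280 bp over 1209 distances, and 48.7% were 5 kb or less. In dense members the median was 4176 bp and 61.2% were 5 kb or less, and in sparse members 7544 bp and 37.8%. Density and spacing are 2 views of the same count, so this difference follows from the cut. The smallest distance between any 2 regions of the table was 480 bp; the widths of regions and any rule for merging them are not known here. It was found in Ninj2, between 18.8 and 19.3 kb inside the gene.

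**Figure D3:**
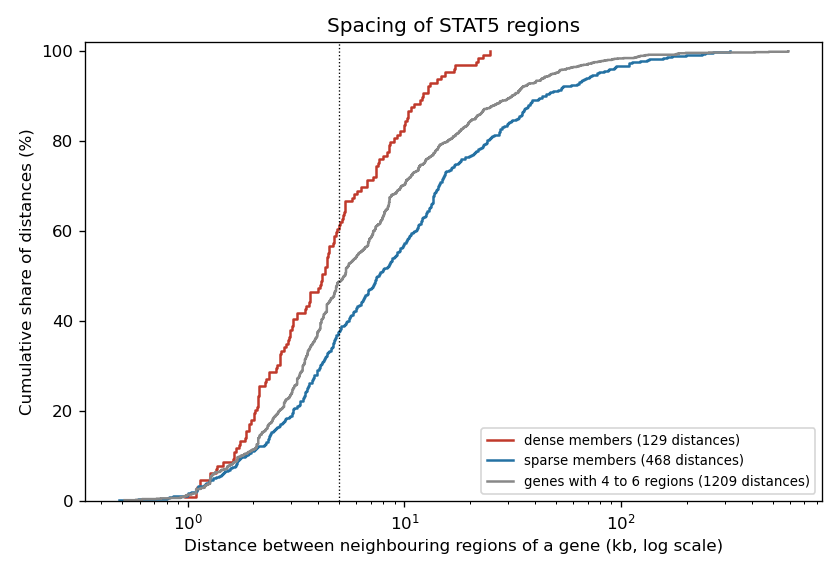
Cumulative share of distances between neighbouring regions of 1 gene (kb, log scale) for dense members, sparse members and genes with 4 to 6 regions; the dotted line marks 5 kb, where the shares are 61.2%, 37.8% and 48.7%. The curve of sparse members lies to the right of both others over most of the range above 2 kb.

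Sparse members differed in how their regions were spread. The median distance within a sparse member was 0.59 of that member's mean distance, as the middle value over 54, 0.81 in the 14 dense members and 0.84 in genes with 4 to 6 regions. Randomly placed regions also give a value under 1, so no clustering is read from these. The longest empty stretch between neighbouring regions took a median of 25.9% of the searched window over all members, and 23.2% in the dense ones. Bcl2, the founding survival protein of its family, had 11 regions over 176 kb, with 2 at 0.26 and 1.68 kb, an empty stretch of 71.5 kb, and 9 between 73.2 and 152 kb. Hecw2 had 4 regions within 7792 bp and no region before 305.5 kb. Atxn1 had 5 regions within 11664 bp, and Galnt2 5 within 16384 bp. At the other end, Lpp, a gene for a protein of focal adhesions, had 7 regions over 599 kb with no pair closer than 29.9 kb, and Cdk6, a cyclin-dependent kinase, had 8 regions with no pair closer than 5088 bp. All 7 regions of Mir21 formed 1 chain over 16176 bp with steps of 5 kb or less. This was the longest such chain by number of regions in any member, shared with Vmp1, and Gm8369 followed with 6 over 11824 bp.

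Heights were near the table's median in control and above it with IL-2. The mean control height of members ran from 3.71 (Rras2) to 6.43 (Trbj2-3 and Trbj2-4) with a median of 5.11, against 5 over all genes. The mean IL-2 height ran from 18.3 (Rad51b) to 62.3 (Pik3r5) with a median of 31.3, against 20.8 over all genes and 31.3 in genes with 6 regions. The lowest IL-2 mean was thus above the highest control mean. Regions were called in the IL-2 library, and the lowest mean IL-2 height of any listed gene was 9, already above 6.43. The separation is therefore largely set by the calling of regions, and nothing is read from it. Of the 68 members 65 were above the table's IL-2 median, and the exceptions were Rad51b, Coro2a and P2ry12. Most listed genes have a single region, while members have means over many, so nothing is read from this count either. None of the 68 had an interval called in the control library, where 12 genes of the table did.

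The log2 ratio of IL-2 height plus 5 over control height plus 5 had a median of 1.85 in members (range 1.25 to 2.67), against 1.41 over the table. All 68 had a ratio of at least 2, where 83.8% of listed genes did, and 24 had a ratio of at least 4 (35.3%), where 23.1% did. Regions were called in the IL-2 library and members were chosen by them, so nothing is read from these counts. The scaling between the libraries was not given in the sources used here. With both set to the same median over the table, 65 members were still higher with IL-2, where 58.7% of listed genes were, and none had a ratio of at least 2. That count too sets means over many regions against genes that mostly have 1, so nothing is read from it.

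Averaged over assignments, in which a shared region counts once for each gene, a member region had a height of 32.5 with IL-2 and 5.13 in control, and the region of a gene with only 1 had 25.7 and 4.67. Genes with 2 to 6 regions lay between, at 30.8 and 5.09. Those with 6 regions alone were above the members, at 34.5 and 5.36, and those with 7 were at 31.5 and 5.12. The height per region thus did not rise steadily with the count. Over all assignments of the table it was 28.9 with IL-2 and 4.93 in control. Within the members, Spearman's rho (n = 68 genes, some sharing regions) was 0.02 between count and mean IL-2 height, 0.03 between density and mean height and -0.04 between length and mean height. Both the highest mean (Pik3r5) and the lowest (Rad51b) belonged to members with 7 regions, and the 6 members with 16 or more lay between 27.4 and 41.6.

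**Figure D4:**
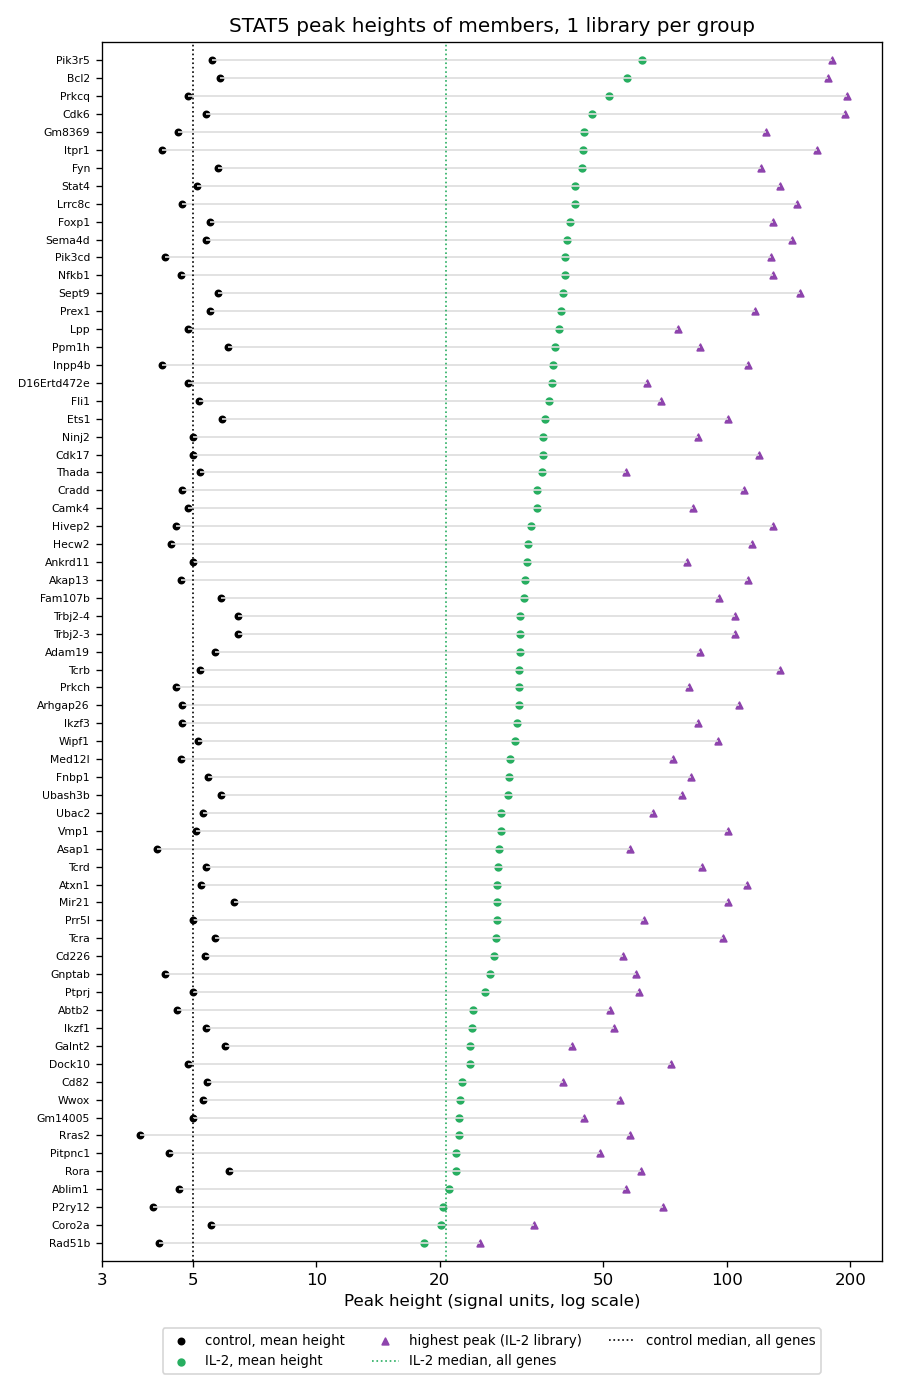
Mean control height (black), mean IL-2 height (green) and highest peak (purple) of 67 of the members in signal units (log scale), ordered by mean IL-2 height, with 1 library per group; dotted lines are the medians over all genes, 5 and 20.8. Control heights stay between 3.71 and 6.43 while highest peaks run from 25 to 196.

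The highest peak of a member ran from 25 (Rad51b) to 196 (Prkcq), with a median of 86.5, against 23 over the table, where most genes have a single region. It was 100 or more in 30 of 68 members (44.1%) and in 241 of 4934 genes (4.88%); a maximum over more regions is larger by construction. It made up a median of 30.8% of a member's summed height, from 11.7% in Ubac2 to 52.3% in Mir21. The lowest share possible falls as the count rises, and Ubac2 had 20 regions and Mir21 7, so this share too depends on the count. With the highest peak left out, the remaining regions averaged a median of 24.2. The median of the same value was 16 in genes with 2 to 6 regions and 22 in genes with 6. Leaving out the highest peak removes a larger part of a gene with fewer regions, so these values also depend on the count by construction.

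In 15 members the highest peak was at least 5 times the mean of the others, and in 11 it was under 2.5 times. Cdk6 had a peak of 194 with the other 7 regions averaging 25.9. Prkcq, which encodes the protein kinase C that couples the T cell receptor to NF-kB, had 196 and 31. Mir21 had 101 and 15.3. Sept9, a septin of the cytoskeleton, had 151 and 24.1, Lrrc8c, a subunit of volume-regulated anion channels, 148 and 25.2, and Hecw2 115 and 19.2. At the even end, Rad51b, of homologous recombination, had 25 and 17.2, Thada 57 and 32.9, Coro2a 34 and 18.8, and D16Ertd472e 64 and 33.2. Pik3r5 and Bcl2 had both a high peak (181 and 177) and high remaining regions (42.5 and 45.1), the highest such means of the 68.

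**Figure D5:**
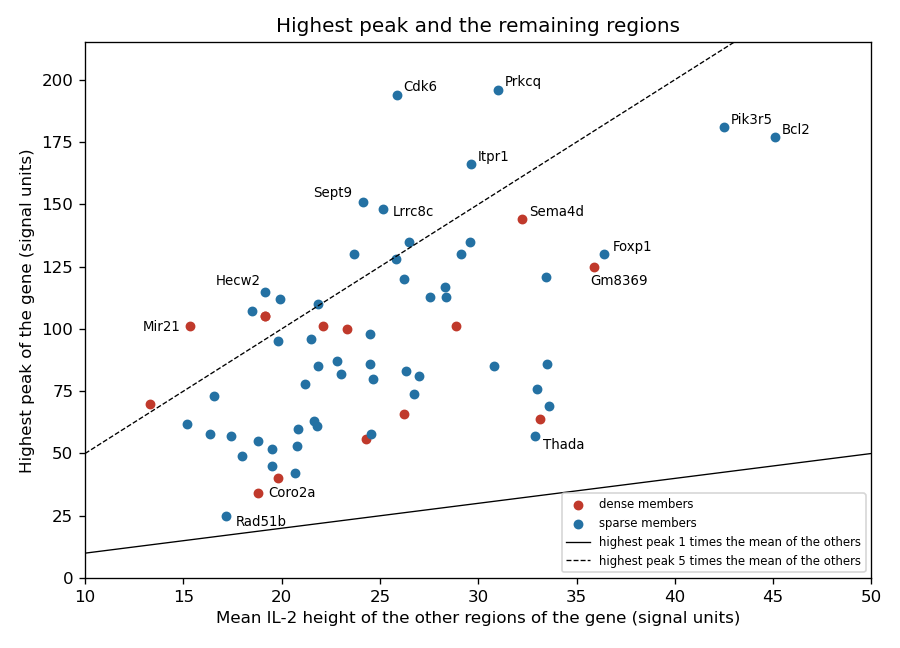
Highest peak of each member against the mean IL-2 height of its other regions (signal units), with lines at 1 and 5 times. Cdk6, Prkcq, Sept9 and Mir21 lie above the dashed line; Rad51b, Thada and Coro2a have the lowest ratios.

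Some highest peaks could be tied to a shared region. The peak of Pik3cd, 128, lay 43.5 kb inside the gene at a region also assigned to Clstn1. Sema4d had the same highest peak, 144, as Gm19281, which shares 3 of its regions, and Ikzf3 the same, 85, as Grb7, which shares 2. Equal maxima are what sharing the peak would give, and the table does not show which region held them. Across the members' 623 distinct regions, 103 lay nearer to the start of another listed gene that shares them than to that of a member, and the other 520 nearest a member. The height could be solved for 45 of the 623 in all.

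By role, transcription factors formed 9 of the 68. Ets1, Fli1, Ikzf1, Ikzf3, Foxp1, Nfkb1, Stat4, Rora and Hivep2 had 7 to 18 regions. Foxp1 had the most, 18 over 510 kb (0.34 per 10 kb; heights 5.5 and 41.6), 14 of them before its midpoint and 1 at 0.08 kb. Stat4, which relays IL-12 signals, had 8 regions and heights of 5.13 and 42.8. Nfkb1, the precursor of an NF-kB subunit, had 9 (4.67 and 40.3). Ikzf1, which encodes Ikaros, had 10 (5.4 and 24) with 9 inside the gene and 1 upstream, and Ikzf3, which encodes Aiolos, 7 (4.71 and 30.9) with 2 upstream, 3 inside and 2 downstream. Rora had the lowest density of all members, 0.09 per 10 kb, and heights of 6.14 and 21.9. Of the 42 T cell transcription factors with a region, 7 were members (16.7%), where 1.38% of all listed genes were; the list was written with earlier results known.

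Signalling genes of the antigen receptor and of calcium made up 9 more. Prkcq had 8 regions (4.88 and 51.6), 7 of them between -2.24 and 45.9 kb from the start. Prkch, of the same kinase family, had 13 (4.54 and 31.2), and Fyn, a Src-family kinase, 8 (5.75 and 44.4). Itpr1, a channel that releases calcium from the endoplasmic reticulum, had 9 (4.22 and 44.8) and a highest peak of 166. Camk4, a kinase activated by calcium and calmodulin, had 7 (4.86 and 34.4). Ubash3b and Ptprj, phosphatases that act on receptor signalling, had 7 (5.86 and 29.3) and 10 (5 and 25.7). Cd226, described above, was among the dense members. Of the 33 T cell receptor signalling genes with a region, 6 were members (18.2%), where 1.38% of all listed genes were. The median was 3 regions over the 33 and 1 over the table. This list too was written with earlier results known, and neither its share nor that of the transcription factors was compared at like gene length.

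Genes of the PI3 kinase and mTOR pathway were Pik3cd, Pik3r5, Inpp4b, Prex1 and Prr5l. Pik3r5, a regulatory subunit of PI3 kinase gamma, had 7 regions in 65.7 kb (0.82 per 10 kb) and the highest mean of all members, 62.3, against 5.57 in control. Pik3cd, the catalytic subunit delta, had 7 (0.97 per 10 kb; 4.29 and 40.4). Inpp4b, a phosphatase of the lipids this pathway makes, had 9 over 407 kb (4.22 and 37.8), Prex1, an activator of Rac, 8 (5.5 and 39.4), and Prr5l, a partner of mTOR complexes, 7 (5 and 27.6). All 5 were sparse by the density cut, Pik3cd only just.

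Survival and cell cycle genes were Bcl2, Cradd, Cdk6 and Cdk17. Bcl2 had heights of 5.82 and 57.1, Cdk6 5.38 and 46.9, Cradd 4.71 and 34.4, and Cdk17 5 and 35.6. Cdk17 had 10 regions in 80.5 kb (0.995 per 10 kb), directly under the density cut, and the 4 nearest its start also belong to Mir1931. Bcl2 and Cdk6 were the only members among 28 listed IL-2 STAT5 target genes with a region (7.14%). Among the 21 cytokine receptor genes with a region 0 had 7 or more, and among 22 chromatin and RNA regulators 0 did. Members were 1.38% of all listed genes, so 0 in lists of this size is near that share and is not read as a lack of binding. The cytokine receptor genes had a median of 3 regions and the chromatin and RNA regulators 1.5, against 1 over the table.

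Genes of the cytoskeleton and of small GTPases made up 11 members by the hand grouping used here, which has no share over the whole table. Of 31 genes with a region on a separate list for adhesion, migration and cytoskeleton, 1 was a member (3.23%), Dock10, where 1.38% of all listed genes were members. Akap13, a signalling scaffold, had 18 regions over 299 kb (0.56 per 10 kb; 4.67 and 32.3), 10 of them after its midpoint and 1 upstream. Asap1 and Arhgap26, which switch off small GTPases, had 10 (4.1 and 27.9) and 7 (4.71 and 31.1). Fnbp1, which bends membranes toward actin, had 9 (5.44 and 29.6), and its region printed above, at -0.01 kb, had a height of 16 and was shared with Gpr107 and D330023K18Rik. Wipf1, the partner of the WASP protein, had 7 (5.14 and 30.6), all between 43.4 and 79.3 kb inside the gene. Ablim1, an actin-binding protein, had 11 (4.64 and 21), Rras2, a Ras relative, 7 (3.71 and 22.3), Dock10 8 (4.88 and 23.6), Sept9 8 (5.75 and 40) and Lpp 7 (4.86 and 39.1). Coro2a was the densest of them and Lpp the least dense, at 0.11 per 10 kb.

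The T cell receptor loci had the largest counts. Tcra had 26 regions over 1796 kb (0.14 per 10 kb; 5.65 and 27.4), all after its midpoint, and Tcrd, which lies within it, 13 (5.39 and 27.8), all of them also in Tcra. Tcrb had 23 over 667 kb (0.33 per 10 kb; 5.22 and 31.2). There 16 regions lay from -3.10 to 324 kb, followed by an empty stretch of 317 kb and then the 7 regions of Trbj2-3 and Trbj2-4, from 641 to 663 kb. Because many segments share these regions, single heights could be solved. In Tcra they ranged from 11 to 98 with IL-2, with 98 at 1792 kb, 87 at 1711 kb and 61 at 1721 kb; the others solved were 54 or lower. In Tcrb the region at 663 kb had 105, that at 312 kb 69 and that at 286 kb 66. The highest peak of Tcrb, 135, was also that of Moxd2, Prss58 and Trbv1, each with 2 regions, the pair at -3.10 and -0.26 kb of Tcrb.

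Surface and membrane genes were Sema4d, Adam19, Cd82, P2ry12, Ninj2 and Lrrc8c. Adam19, a membrane metalloprotease, had 9 regions (0.81 per 10 kb; 5.67 and 31.3). Ninj2, an adhesion protein, had 11 (0.87 per 10 kb; 5 and 35.7) in 2 groups and 1 distant upstream region, with 5 between 18.8 and 31.3 kb and 5 between 94.0 and 107 kb. Lrrc8c had 7 (4.71 and 42.7), of which 3 were upstream, 2 inside and 2 downstream, and 2 lay within 1 kb of its start. Gm14005, an uncharacterised entry of 131 kb, had 9 regions (5 and 22.3).

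The remaining members had 7 to 12 regions each. These were Gnptab, Fam107b, Galnt2, Abtb2, Ankrd11, Ppm1h, Thada, Pitpnc1, Atxn1, Hecw2, Rad51b and Wwox. Ppm1h, a phosphatase, had the highest mean IL-2 height of these, 38.3 over 11 regions (control 6.09), with 9 of the 11 before its midpoint. Gnptab, which tags lysosomal enzymes, had 4.29 and 26.4, and Atxn1 5.25 and 27.6 over 12 regions, 11 before the midpoint. Wwox spans 913 kb and had 10 regions (5.3 and 22.4), 9 after its midpoint. Rad51b, over 517 kb, had the lowest mean and the lowest ratio of peak to mean, 1.37.

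At the threshold, 25 members had 7 regions and 42 genes just outside had 6. Mean heights at 7 regions had medians of 4.86 and 31.1, and at 6 regions 5.42 and 31.3. Highest peaks had medians of 83 and 85, and lengths 99.8 and 78.0 kb. Densities had medians of 0.58 and 0.62 per 10 kb. Among the 42 were Il2ra, Pim1, Runx1, Ptpn22, Cblb and Tnfrsf9, and also 6 segments of the T cell receptor beta locus. In 2 of them, 2310001H17Rik and Ppp3cc, the table lists 7 intervals, of which 1 is a control interval.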

How the data were processed

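STAT5 ChIP-seq was done on 1 control and 1 IL-2 library of mouse CD8 T cells. Per the submitters' processing notes, the tools include BWA and the build is mm10; peak caller, depth and scaling were not given in the sources used here. Deposited by the authors was 1 gene table whose heights are in signal units; per the file headers and interval names, intervals were called in each library. Columns of other samples numbered 0. Computed here (Python 3.11.15, pandas 2.3.3, numpy 2.4.6) were density per 10 kb of gene length plus 20 kb, distances between regions, log2 ratios with a pseudocount of 5, and region heights solved from the sums of genes that share regions, a solver tested on simulated data. All 68 identifiers matched RefSeq. Members, roles, lists and the naming rule were chosen with earlier results of these data known. Every member could be named, in full the 12 densest, the 10 longest, those with the 10 largest counts or highest peaks, the 5 highest and 5 lowest ratios, and members on a list. 1 member and 1 gene that shares a region are not reported here by name. No test was made. Scaling, pseudocounts, thresholds and distances were varied, and counting 1 member per locus, leaving out T cell receptor loci and using every RefSeq start were chosen after seeing the data.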

Additional observations from a re-analysis of the deposited data

How the results depend on the processing

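No paired analysis was possible because there was a single library per group. The 68 members became 110 with 6 or more regions and 43 with 8 or more, by construction. Those with a ratio of at least 2 became 24 under the size rule of 4 and 0 after scaling the libraries to equal medians, which removes any overall difference by construction. Members' median log2 ratio, 1.85, was 2.43 at pseudocount 1 and 1.44 at 10; it was 0.33 after that scaling, 3.19 from the highest peak and 1.90 with 1 member per locus. The median density of 0.56 per 10 kb became 0.54 with gene length alone, 0.57 with 6 or more regions, 0.56 with 8 or more, 0.54 with 1 member per locus and 0.56 without T cell receptor loci. The 14 dense members became 40 at 0.5 per 10 kb, 4 at 1.5, and 7 by length under 50 kb. The share near the start, 5.86%, became 13.2% within 5 kb and 10.5% with every RefSeq start over the 47 members with windows, where the deposited start gives 7.08%. The share of distances of 5 kb or less, 42.9%, became 12.6% at 2 kb and 63.0% at 10 kb. The other settings run moved no count by more than 1.5 times: 66 members had a ratio of at least 2 with a pseudocount of 10, and 10 dense members were left with 1 per locus. Counting 1 member per locus, leaving out T cell receptor loci and using every RefSeq start were chosen after seeing the data. Unknown depth and single libraries limit every height.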

Other observations

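Of the 5703 region positions in the table, 5449 are multiples of 16, so distances between regions are resolved to about 16 bp at best. In 3 genes, Coro2a the only member among them, the deposited control mean times the number of regions is not whole within rounding, whereas no IL-2 mean has this property.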
